A study of Mus musculus with 8 samples.

Results

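The HoxA cluster of chromosome 6 was examined in mouse tailbuds, the growing posterior end of the embryo, by ATAC-seq, in which Tn5 transposase inserts sequencing adapters into accessible chromatin. The libraries came from E9.5 embryos of the outbred CD-1 background, 4 of them wild type (WT/WT) and 4 carrying Danforth's short tail on both chromosomes (Sd/Sd). Sd is a retrotransposon insertion near the gene Ptf1a that shortens the tail and spine. Tailbuds of 2 mice were combined where 1 gave too little, which libraries these are is not stated, and separate litters are not named, so the p-values measure only the spread between these libraries. The members were the counted regions of the authors' shared table that overlap chr6:52110500-52230000 (mm9), from Hoxa2 to beyond Hoxa13. There were 7 of 26620 regions in all, 1664 of which lie on chromosome 6. They are called HoxA regions 1 to 7 in order of position, from the anterior genes to the posterior ones. Gene starts in mm9 were placed to about 1 kb only.

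Hox genes encode homeodomain transcription factors that give body segments their identity along the head-to-tail axis. Within a cluster the genes lie in the order in which they are used, with the anterior, early genes at one end and the posterior, late genes at the other. In the tailbud the cluster opens progressively as the axis extends, and its posterior genes are linked to the end of axis growth. All 10 named genes, Hoxa2 to Hoxa7, Hoxa9 to Hoxa11 and Hoxa13, are read in the same direction, so that Hoxa13 lies upstream of all the others.

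Sequences just upstream of the Hox starts are given first, because they show how unlike the promoters of the cluster are in base composition. Of the 10 genes, 9 had an entry in the RefSeq promoter table (build GRCm38.p6), with 10 starts in all, and Hoxa4 had none. Shown are the 250 bases before the start, 5′ to 3′ on the minus strand of chromosome 6. Capitals mark CG dinucleotides for Hoxa5, Hoxa9 and Hoxa13, and the letters TTTATG for Hoxa7. Hoxa5 (chr6:52204588-52204837) is shown as a promoter at whose start 1 library had a peak, and Hoxa7 (chr6:52218574-52218823) as one whose start lies near a counted region. Hoxa9 (chr6:52227371-52227620) and Hoxa13 (chr6:52260881-52261130) are shown as ones with no peak within 1 kb of the start in any library. For Hoxa7 none was within 1 kb either, but its start is placed to about 1 kb and region 6 lies about that far away. These GRCm38 positions cannot be set against the mm9 positions used for the regions.
Hoxa5: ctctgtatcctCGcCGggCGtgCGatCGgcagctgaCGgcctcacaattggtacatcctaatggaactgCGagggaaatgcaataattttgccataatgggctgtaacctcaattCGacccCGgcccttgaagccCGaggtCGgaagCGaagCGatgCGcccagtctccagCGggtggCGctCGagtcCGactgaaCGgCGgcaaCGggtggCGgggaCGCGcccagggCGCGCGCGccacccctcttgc
Hoxa7: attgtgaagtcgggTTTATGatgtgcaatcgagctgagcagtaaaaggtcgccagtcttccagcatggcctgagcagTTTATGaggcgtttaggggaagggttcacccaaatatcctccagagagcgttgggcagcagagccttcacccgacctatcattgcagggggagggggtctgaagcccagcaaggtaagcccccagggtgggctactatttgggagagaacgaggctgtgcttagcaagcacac
Hoxa9: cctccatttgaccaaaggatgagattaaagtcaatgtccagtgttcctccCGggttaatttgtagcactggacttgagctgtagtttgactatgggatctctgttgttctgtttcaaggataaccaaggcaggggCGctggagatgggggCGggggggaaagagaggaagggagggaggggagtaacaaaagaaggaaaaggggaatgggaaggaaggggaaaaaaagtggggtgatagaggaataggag
Hoxa13: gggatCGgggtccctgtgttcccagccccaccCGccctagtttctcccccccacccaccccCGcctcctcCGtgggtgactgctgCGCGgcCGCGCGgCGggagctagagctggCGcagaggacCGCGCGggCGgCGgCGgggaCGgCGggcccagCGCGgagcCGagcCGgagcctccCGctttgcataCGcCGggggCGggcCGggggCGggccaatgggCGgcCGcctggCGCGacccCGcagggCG

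The Hoxa13 promoter holds 35 CG dinucleotides in these 250 bases, a number reached by 2.97% of the 32851 promoter entries, and Hoxa5 holds 28, reached by 7.61%. Hoxa9 holds 3 and Hoxa7 holds 7, against a median of 6 over all entries. GC content over the 10 HoxA starts ran from 46.4% at Hoxa2 to 80% at Hoxa13, with a median of 52.4% over all entries. The letters TTTATG, a core of the sites bound by caudal-type homeodomain proteins, were searched on both strands and occur at 1 of the 10 starts, 2 times upstream of Hoxa7, and in 10.8% of all entries. CCAAT was found at 5 starts (33.8% of all entries) and TATAAA at 1 (12.4%), both strands searched. A match describes the letters only.

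Peaks had been called by the authors in each library alone, and 34 of them fell in the window over the 8 libraries. Fold enrichment over the peak caller's background, the authors' value, ran from 2.5 to 3.8 with a median of 3.04, against a median of 3.33 for all peaks of these libraries. Of the 34 peaks, 28 lay in the 7 counted regions. The other 6 were each present in 1 library only, and all 6 lay outside the counted set. Of all counted regions, 100% (to 3 digits) had a peak in 2 or more libraries, so peaks of 1 library alone are left out of that set. WT replicates 1 to 4 had 6, 3, 2 and 4 peaks in the window and Sd/Sd replicates 1 to 4 had 4, 5, 6 and 4. The 2 groups thus overlapped in peak number.

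**Figure D1:**
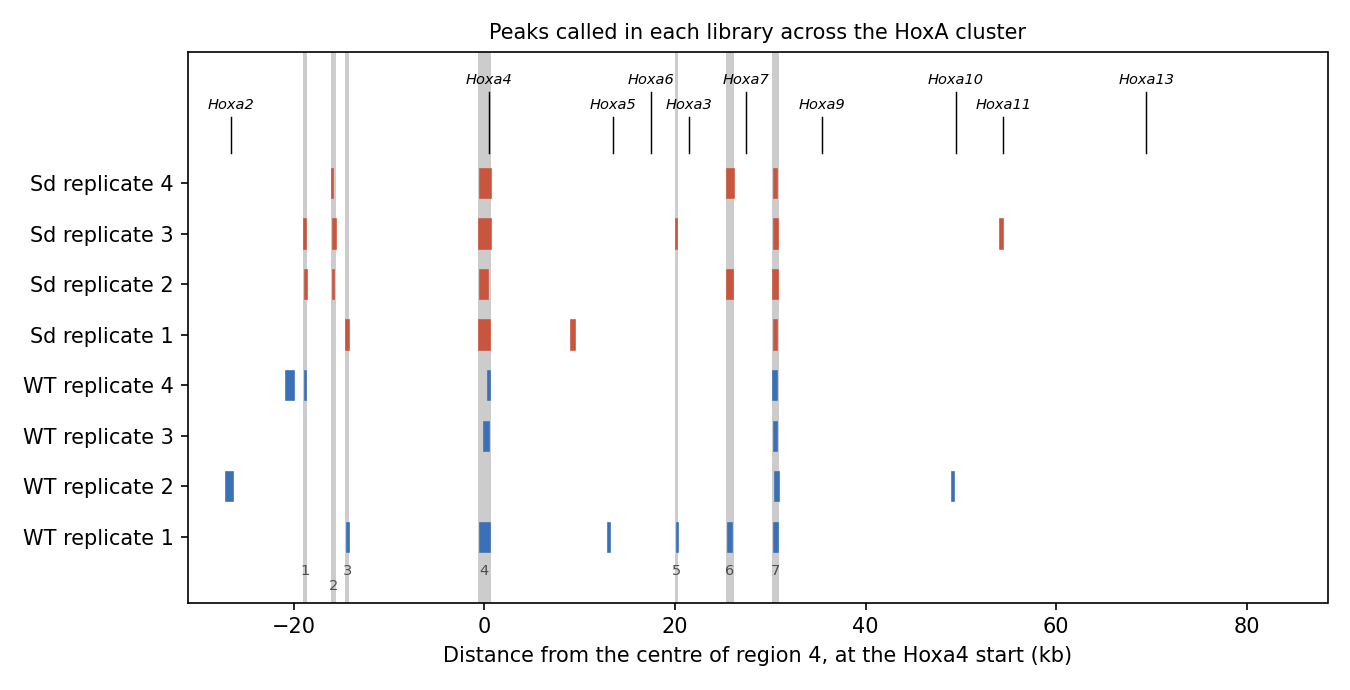
Peaks called in each library (bars, 1 row a library, blue for WT and red for Sd/Sd) against distance in kb from the centre of region 4. Grey bands are the 7 counted regions and ticks mark the approximate starts of the 10 genes. Regions 4 and 7 recur in most libraries, with a peak in 7 and 8 of 8, and beyond region 7 there is 1 peak each in replicate 2 of WT and replicate 3 of Sd/Sd.

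Counted regions were unevenly spread along the cluster. All 7 lay on the anterior side, from Hoxa3 to the gap between Hoxa7 and Hoxa9, and the last of them ended at 52172463. None of the regions analysed here lay in the remaining 57.5 kb of the window, which holds Hoxa9 (trunk patterning and blood progenitors), Hoxa10 (lumbar vertebrae), Hoxa11 (limb and kidney) and Hoxa13 (digits, hindgut and genital tract). In that stretch WT replicate 2 had a peak from 52190481 to 52190774, beside the upstream start of Hoxa10, with a fold enrichment of 3.01. Sd/Sd replicate 3 had one from 52195579 to 52195926, at the start of Hoxa11, with a fold enrichment of 2.81. No library had a peak within 1 kb of the approximate starts of Hoxa9 or Hoxa13, nor of Hoxa3, Hoxa6 or Hoxa7. For Hoxa3 and Hoxa7 this is not resolved. Regions 5 and 6 lie about 1 kb from these starts, which are themselves placed to about 1 kb. Only 1 start per gene was used, for Hoxa3 the most upstream one. The Hoxa4 start had a peak in 7 libraries, and no other approximate start had one in more than 1 within that distance. With no counted region from Hoxa9 to Hoxa13, no CPM can be given for the genes there.

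Hoxa3, needed for the thymus, parathyroid and throat skeleton, extends over Hoxa4, Hoxa5 and Hoxa6 in the RefSeq gene table (GRCm38.p6). By their approximate places regions 1, 2 and 3 lie in it between the starts of Hoxa2 and Hoxa4, and region 5 lies about 1 kb inside its most upstream start. Region 1 (52122525 to 52122893) was the densest of the 7, at 39.6 CPM per kb, where CPM is a count scaled to a library total of 1000000. It had 15.9, 12.3, 15.0 and 17.6 CPM in the WT libraries by replicate number, and 12.2, 17.8, 17.8 and 8.37 CPM in the Sd/Sd ones. Sd/Sd replicate 4 lay well below the WT range, with 35 counts, and the other Sd/Sd values were close to its ends. The coefficient of variation was 32.8% in Sd/Sd against 14.7% in WT. The means were 15.2 ± 2.23 and 14.0 ± 4.61 CPM (SD, n = 4 each), with a log2 fold change of -0.13 (SE 0.23, 95% interval -0.57 to 0.31, edgeR adjusted p = 0.977). Peaks were called in the 3 libraries of highest CPM, which were replicates 2 and 3 of Sd/Sd and replicate 4 of WT. Its peak in WT replicate 4 had the highest fold enrichment of the window, 3.8.

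Region 2 (52125448 to 52125991) had a peak in 0 of 4 WT and 3 of 4 Sd/Sd libraries and yet nearly the same CPM in both. It had 15.9, 18.9, 14.3 and 16.1 CPM in the WT libraries by replicate number, and 16.9, 19.1, 14.8 and 13.6 CPM in the Sd/Sd ones. The 3 libraries with a peak included both the highest and the lowest of the 8, Sd/Sd replicates 2 and 4, while WT replicate 2, at 18.9 CPM, had none. The means were 16.3 ± 1.91 and 16.1 ± 2.41 CPM (SD, n = 4 each), with a log2 fold change of -0.017 (SE 0.21, 95% interval -0.43 to 0.4, edgeR adjusted p = 0.997). It was the one HoxA region of the 7 with no WT peak. Its place in the counted set thus came from Sd/Sd libraries alone. Its bounds are the outer ends of Sd/Sd peaks, as are those of regions 1, 3, 4 and 6, which also had WT peaks.

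Region 3 (52126980 to 52127302) was high in both libraries numbered 1 and lower in all others. By replicate number WT had 15.6, 10.9, 8.35 and 9.66 CPM and Sd/Sd had 15.8, 11.0, 8.14 and 8.85 CPM. The genotypes overlapped over their whole range, and the means were 11.1 ± 3.18 and 11.0 ± 3.47 CPM (SD, n = 4 each), with a log2 fold change of -0.027 (SE 0.26, 95% interval -0.55 to 0.49, edgeR adjusted p = 0.997). A peak was called in these 2 libraries and in no other. The place of region 3 in the counted set thus came from these 2 libraries, so their high values are in part a condition of entry. The labels do not say what a replicate number stands for, and over all regions the deviations of these 2 libraries from their group means correlated at 0.0037. Without both of them the log2 fold change was -0.049.

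The region at the start of Hoxa4, a gene of cervical vertebral identity, had the most counts. Region 4 (52140847 to 52142244) was the widest of the 7 at 1398 bp, wider than 82.9% of all regions. Its CPM was 41.4, 37.4, 32.0 and 37.5 in the WT libraries by replicate number, and 45.8, 34.6, 42.2 and 32.8 in the Sd/Sd ones. The 2 highest values were in Sd/Sd, in replicates 1 and 3, and the groups overlapped. The means were 37.1 ± 3.87 in WT and 38.9 ± 6.19 in Sd/Sd (SD, n = 4 each), a log2 fold change of 0.068 (SE 0.14, 95% interval -0.21 to 0.34, edgeR adjusted p = 0.98). A peak was called there in 3 of 4 WT and 4 of 4 Sd/Sd libraries. The library without one, WT replicate 2, had a higher CPM than WT replicate 3, which had one.

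Region 5 (52161595 to 52161822) was the narrowest of the 7, at 228 bp, and the least covered, at 11 to 39 counts a library. It had 11.3, 8.94, 6.61 and 5.56 CPM in the WT libraries by replicate number, and 6.67, 3.56, 11.5 and 5.26 CPM in the Sd/Sd ones. The highest libraries were replicate 3 of Sd/Sd and replicate 1 of WT, the 2 with a peak, and the groups overlapped. The place of region 5 in the counted set came from these 2 libraries, so their high values are in part a condition of entry. The means were 8.10 ± 2.56 CPM in WT and 6.74 ± 3.40 CPM in Sd/Sd (SD, n = 4 each). The log2 fold change of -0.27 (SE 0.33, 95% interval -0.91 to 0.38, edgeR adjusted p = 0.959) rested on few counts, and it ran from -0.63 to -0.056 when 1 library was left out, the ends being the fits without Sd/Sd replicate 3 and WT replicate 1.

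Hoxa7, a gene of thoracic identity, had a region about 1 kb from its start, on the transcribed side. Region 6 (52166882 to 52167707) had 25.5, 25.2, 18.8 and 17.0 CPM in the WT libraries by replicate number, and 23.1, 18.4, 13.9 and 18.9 CPM in the Sd/Sd ones. WT replicates 1 and 2 were the 2 highest libraries and Sd/Sd replicate 3 the lowest, and the other values of both genotypes were interleaved. The means were 21.6 ± 4.36 and 18.6 ± 3.75 CPM (SD, n = 4 each), with a log2 fold change of -0.21 (SE 0.19, 95% interval -0.59 to 0.17, edgeR adjusted p = 0.931). Per length it was the least dense of the 7, at 24.3 CPM per kb. The libraries with a peak were WT replicate 1 with replicates 2 and 4 of Sd/Sd, while WT replicate 2, at 25.2 CPM, and Sd/Sd replicate 1, at 23.1 CPM, had none.

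Region 7 (52171673 to 52172463), between the start of Hoxa7 and the gene Hoxa9, was called as a peak in 8 of 8 libraries, as were 41.3% of all regions. It had 34.5, 37.1, 27.5 and 31.3 CPM in the WT libraries by replicate number, and 31.4, 30.4, 25.9 and 21.1 CPM in the Sd/Sd ones. WT replicate 2 had the highest and Sd/Sd replicate 4 the lowest value, and the ranges of the genotypes overlapped. The means were 32.6 ± 4.14 in WT and 27.2 ± 4.74 in Sd/Sd (SD, n = 4 each). The log2 fold change of -0.26 (SE 0.16, 95% interval -0.57 to 0.04) had the smallest p of the 7 and did not pass the test (unadjusted p = 0.0903, edgeR adjusted p = 0.861). In the edgeR fits that left out 1 library, the unadjusted p fell to 0.0428 when this was Sd/Sd replicate 1 and to 0.0429 when it was WT replicate 3, and the adjusted p was at least 0.637 in all 8.

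**Figure D2:**
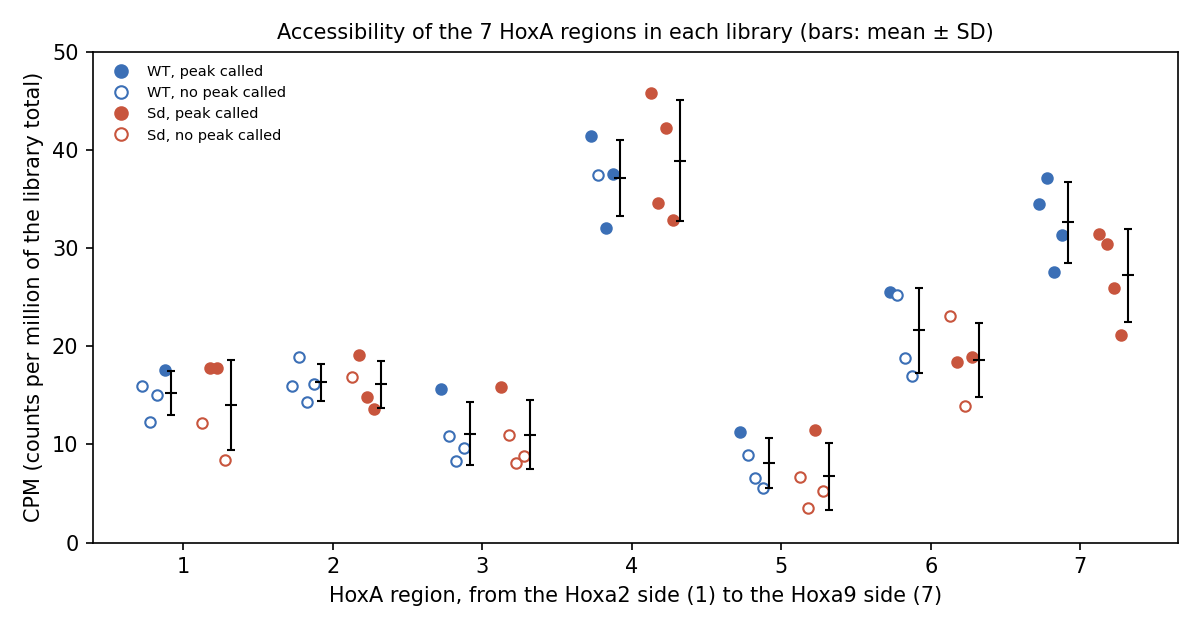
CPM (counts scaled to a library total of 1000000) of the 7 HoxA regions in each library, blue for WT and red for Sd/Sd, filled where a peak was called there in that library; within a group the points run from replicate 1 to 4, and black bars give the mean ± SD (n = 4). Both genotypes overlap at every region, and at region 2 filled points occur in Sd/Sd alone at the same level as the open WT points.

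The remaining genes had peaks in 1 library or none. Hoxa2, which patterns the hindbrain and the second branchial arch, had a peak at its start in WT replicate 2 alone, from 52114323 to 52115203, with a fold enrichment of 3.06. Hoxa5, which acts at the neck-to-trunk transition and in the lung, had one at its start in WT replicate 1 alone, from 52154465 to 52154738, with a fold enrichment of 3.18. Hoxa6, a thoracic gene, had no peak within 1 kb of its start in any library. The other peaks outside counted regions were 1 between Hoxa2 and region 1 in WT replicate 4 and 1 between Hoxa4 and Hoxa5 in Sd/Sd replicate 1.

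No HoxA region passed the test between the genotypes. Of the 7, 0 passed an edgeR adjusted p of 0.05, where 0.0188% of all regions did, and 0 had an unadjusted p under 0.05, where 6.06% of all regions did. DESeq2 and limma voom likewise gave 0 at either threshold. In 0 of the 7 did the CPM ranges of the genotypes stay apart, against 3.2% of all regions. The fitted change was below 0 in 6 regions and above 0 in 1, region 4, where 49.9% of all regions were below 0. The median over the 7 was -0.13 on the log2 scale, and over all regions 0.00057. Leaving out Sd/Sd replicate 4 moved that median to 0.053, leaving out WT replicate 1 to -0.056, and leaving out Sd/Sd replicate 1 to -0.26. Sd/Sd replicate 4 had the lowest CPM of the 8 libraries in 3 of the 7 regions and the highest total count, 4180434.

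The 95% interval of the change lay within 2-fold in either direction for 7 of the 7 regions and within 1.5-fold for 5. Region 5 had the widest interval, from 0.531-fold to 1.3-fold, and region 4 the narrowest, from 0.867-fold to 1.27-fold. Since each library mixes all cells of the tailbud, a difference in the share of cells with an open region could not be told apart from one in opening per cell.

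**Figure D3:**
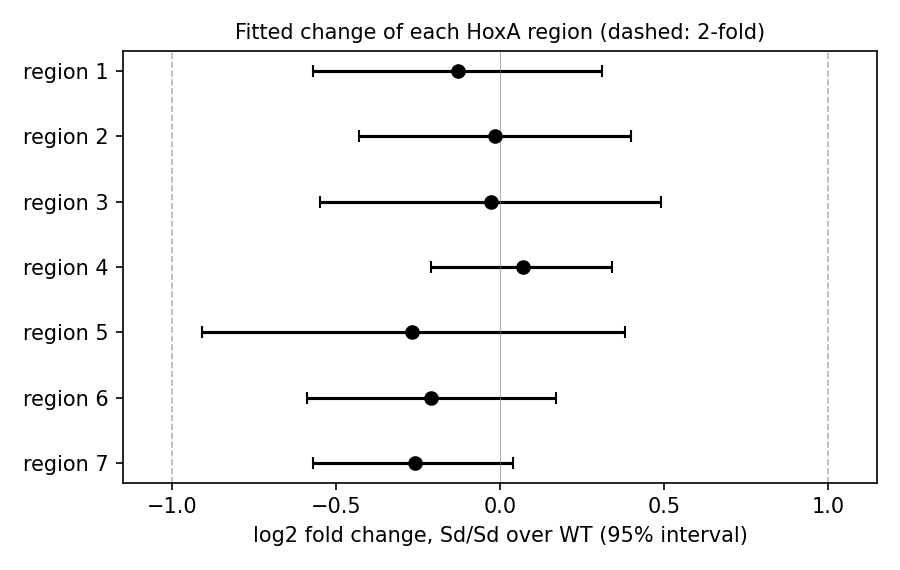
Fitted log2 fold change of Sd/Sd over WT for each HoxA region (points) with its 95% interval (bars) derived from the edgeR F statistic, and dashed lines at a 2-fold change. Every interval includes 0 and lies inside the dashed lines, and region 5 has the widest, from -0.91 to 0.38.

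The 7 regions summed to 160, 151, 122 and 135 CPM in the WT libraries by replicate number, and 152, 135, 134 and 109 CPM in the Sd/Sd ones. The group means were 142 ± 16.8 and 132 ± 17.8 CPM (SD, n = 4 each), and the groups overlapped. The log2 ratio of the means was -0.1. With 1 library left out it was -0.017 (Sd/Sd replicate 4) or -0.037 (WT replicate 1), and -0.173 (Sd/Sd replicate 1) or -0.165 (WT replicate 3). For region 7 alone, the one with a peak in all 8 libraries, it was -0.26. Peaks covered 1.99 ± 0.86 kb of the window in WT and 2.81 ± 0.261 kb in Sd/Sd (SD, n = 4 each). The difference was 0.83 kb with all libraries and 0.524 kb without WT replicate 3. WT replicate 1, at 3.13 kb, lay within the Sd/Sd range of 2.52 to 3.15 kb. The mean covered length was thus higher in Sd/Sd and the mean summed CPM higher in WT, each with overlapping groups. Genome-wide, Sd/Sd libraries had 21306 to 30387 peaks and WT libraries 18682 to 24664, overlapping ranges. When every library was limited to its 18682 top-ranked peaks, the difference in covered length was 0.574 kb.

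Per length the HoxA regions were close to the typical region. Mean CPM per kb had a median of 32.5 over the 7 and 32.9 over all regions, and 4 of the 7 lay below the latter. They were narrow, with a median width of 544 bp against 874 bp, and 6 of the 7 were under that median. A peak was called in a median of 3 libraries for the 7 and 6 for all regions. The spacing was close: the window of 119.5 kb held 7 regions, and 0.811% of the 20219 stretches of that length that tile the autosomes held 7 or more, with a median of 1.

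**Figure D4:**
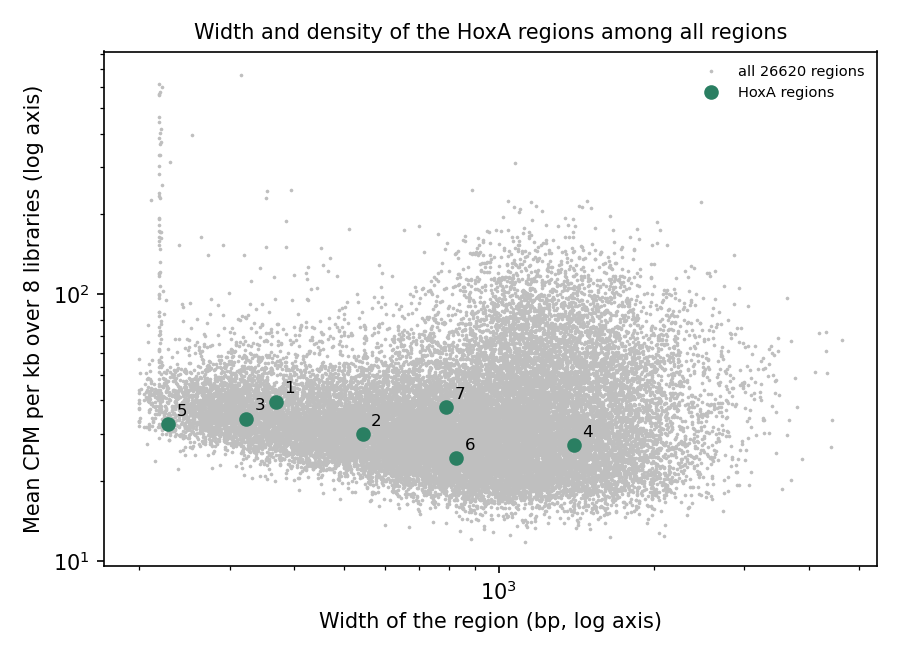
Width in bp against mean CPM per kb over the 8 libraries, both on log axes, for all 26620 regions (grey) and the 7 HoxA regions (green, numbered). The HoxA regions lie between 24.3 and 39.6 CPM per kb, inside the bulk of the grey cloud, and 6 of them lie to the left of the median width of 874 bp.

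Set beside the other Hox clusters, HoxA had fewer counted regions on its posterior side than HoxC or HoxD. From the gene numbered 9 to the gene numbered 13 there were 0 regions in 39 kb of HoxA, 1 in 84 kb of HoxB, 5 in 65 kb of HoxC and 4 in 34 kb of HoxD. Peaks in these stretches were called in 2, 4, 8 and 7 of the 8 libraries, and the differences between clusters were not tested. Over whole clusters there were 7, 3, 11 and 9 regions, with median log2 fold changes of -0.13, -0.27, -0.084 and -0.19, and 0 regions past an edgeR adjusted p of 0.05 in any of them. An unadjusted p under 0.05 was reached by 0, 1, 2 and 2 regions. Over all regions 0.0188% passed the adjusted and 6.06% the unadjusted threshold. The 5 counted regions on each side of the HoxA window, from 51128162 to 53990065, were below 0 in 9 of 10 cases, against 49.9% of all regions. Their median was -0.14 on the log2 scale, with 0 at an unadjusted p under 0.05, and this was not tested.

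Total counts over all regions ran from 2873918 to 4180434 a library, and the median region received 76 to 106 counts, against 11 to 165 counts at the HoxA regions. TMM scaling factors lay between 0.9887 and 1.006. Of 5 tailbud marker genes, T, Tbx6 and Cdx2 had 1, 2 and 4 counted regions within 10 kb of their approximate starts, the highest at 19.0, 34.7 and 38.2 CPM, and Fgf8 and Wnt3a had 0. Accessibility near a gene is no measure of its expression.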

How the data were processed

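Groups were taken from the labels. The submitters' processing notes name mm9 and, in no stated order, MACS2 2.1.1.20160309, BWA 0.7.15-r1140, bedtools 2.26.0, bcl2fastq 2.17.1.14, SAMtools, Picard and CASAVA. Their settings, and any shift of reads for Tn5, were not given in the sources used here. For 26620 shared autosomal regions the authors deposited 1 whole-number count per region and library, with no normalization. They also deposited broad peaks per library with the peak caller's score, fold enrichment (a ratio), −log10 p-value and −log10 q-value. Whether a count is a read, fragment or cut is not stated.

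CPM is a count over the library's total. Differences were tested with edgeR 4.0.16 (quasi-likelihood, robust, TMM, two-sided) in R 4.3.3 on all regions and 8 libraries, with genotype as the only term and Benjamini-Hochberg adjustment over all regions. The procedure was run on simulated data in which all regions shared the same spread between libraries, so it does not measure power at the HoxA regions. Low-count filtering removed 0 regions. Alternatives used DESeq2 1.42.0, limma 3.58.1, other scalings and filters, a replicate block, and each library left out. Other steps used Python 3.11.15 and pandas 2.3.3.

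No mm9 annotation was used here. Gene starts were placed from background knowledge to about 1 kb. Their order matched RefSeq GRCm38.p6 and their spacing differed from it by at most 0.8 kb. Exons, introns and UTRs were not assigned. The naming rule took the region nearest each gene start, regions of unadjusted p under 0.05, the densest, the least dense and the widest; regions 2 and 3 fall outside it and were added after their values were seen. A share of counts for Hoxa9 to Hoxa13 was planned and has no value, since no analysed region lies there. The members, lists and windows were chosen with earlier results of these data known.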

Additional observations from a re-analysis of the deposited data

How the results depend on the processing

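No HoxA region passed an adjusted p of 0.05 (edgeR, DESeq2 or limma) under the alternatives run: the count was 0 with DESeq2, limma voom, RLE scaling, the library total alone, edgeR without robust variance, a filter to mean counts of 50 or more (which left 4 of the 7), the replicate block, and each library left out. Regions at an unadjusted p under 0.05 numbered 0 to 1 with 1 library left out. The median log2 fold change ran from -0.261 to 0.053 with 1 library left out and was -0.157 with the replicate block, against -0.13. Whether replicate numbers pair the libraries is not stated in the labels. Over all regions, deviations of libraries with the same number correlated at 0.0037, 0.00824, -0.00109 and 0.0918 for numbers 1 to 4. Between WT and Sd/Sd libraries of different numbers the correlations ran from -0.0473 to 0.0204, so that of number 4 was the highest. The log2 ratio of summed CPM ran from -0.173 to -0.017, and the difference in covered length from 0.524 to 1.21 kb around 0.83 kb, with 1 library left out. With only peaks of q at most 1e-05 the difference in covered length was 0, because 0 peaks of the window reach that q. With the 18682 top-ranked peaks of each library it was 0.574 kb, in the same direction as with all peaks. Directions of 4 regions turned with 1 library left out: region 1 ran from -0.265 to 0.0591, region 2 from -0.103 to 0.0576, region 3 from -0.261 to 0.185 and region 4 from -0.0221 to 0.14. The cause was not tested. Regions 5, 6 and 7 stayed below 0 in all 8 such fits, from -0.628 to -0.0557, -0.328 to -0.0925 and -0.343 to -0.158. Leaving out both libraries numbered 1 was added after the data were seen.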

Other observations

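On the far side of Hoxa13, where Evx1, another homeobox gene, follows the cluster, the stretch up to the next counted region at 52589943 held 2 peaks (chromosome 6, mm9). One was from 52263969 to 52264948 in WT replicate 2, with a fold enrichment of 2.79 (the peak caller's q = 0.067). The other was from 52264722 to 52264963 in Sd/Sd replicate 3, with a fold enrichment of 3.27 (the peak caller's q = 0.00405). The 2 peaks overlap, so this place recurred in both genotypes although no counted region holds it. These 2 libraries also had the peaks at Hoxa10 and Hoxa11. Between region 7 and that next counted region lay 417 kb with no region analysed here.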
